A study of Mus musculus with 5 samples.

Results

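Angptl4 and 9 further genes of lipid droplets and of fatty acid handling were followed through 5 single-cell RNA libraries of sorted mouse liver cells. The 10 genes were Angptl4, Lpl, Plin2, Plin4, Hilpda, Pnpla2, Cd36, Fabp4, Pparg and Ppard, out of 31053 genes counted in the files. They were chosen by name and selected on levels of these libraries: Angptl4 had stood among the genes furthest above the chow level in VitA+ cells after DEN+WAD, so its difference in that comparison is a description and supports nothing. The other genes were added as relatives of Angptl4 in lipid metabolism, with the same comparisons already seen.

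All mice were male and carried the Rosa26mTmG reporter with Col1a1-Cre on a C57BL/6J background, the controls included. The DEN+WAD mice received 10 mg/kg of the liver carcinogen diethyl nitrosamine (DEN) at 2 weeks of age and, from 6 weeks, a liquid Western alcohol diet (WAD) with 3.5% ethanol for 5 months; the chow mice received saline and chow over the same ages. Cells were sorted by vitamin A autofluorescence (VitA) and by GFP, which the Cre switches on for good in any cell where the Col1a1 promoter has driven it. The gate "Col1a1+" is thus meant to mark a history of Col1a1 activity rather than its present level. The libraries were VitA+Col1a1+ DEN+WAD, VitA+Col1a1+ chow, VitA-Col1a1+ DEN+WAD, VitA-Col1a1+ chow and VitA-Col1a1- DEN+WAD, with 1 library in each group. The sources used here do not give the number of mice behind each library. With 1 library per group no difference has a replicate check, no test between conditions was possible, and every interval below covers counting error only. Condition, mouse and library cannot be told apart.

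Angptl4 encodes angiopoietin-like protein 4, a secreted inhibitor of lipoprotein lipase. Lipoprotein lipase, the product of Lpl, releases fatty acids from circulating triglyceride at the vessel wall. Fatty acids that enter a cell bind the peroxisome proliferator-activated receptors (PPARs), nuclear receptors that pair with retinoid X receptors and switch on genes of fatty acid storage and oxidation, Angptl4 and Plin2 among them. Hepatic stellate cells are the vitamin A storing cells of the liver, hold retinyl esters in lipid droplets, and lose many of these droplets when they turn into collagen-producing cells after injury. Angptl4 and Hilpda are also known to respond to low oxygen, and Angptl4 to glucocorticoids.

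Start-site sequence was read for the genes that are known to answer to PPARs and to hypoxia, since these factors bind short motifs near genes. RefSeq start-site windows of 300 bases (build GRCm38.p6) were found for 7 of the 10 genes, 10 windows in all, and not for Angptl4, Lpl and Fabp4, to which the counts of motifs do not apply. Both strands were searched for the core letters of the hypoxia response element in their A form (ACGTG) and their G form (GCGTG), and for AGGTCA, the core letters of a nuclear receptor site. ACGTG lay in 3 of the 10 windows, GCGTG in 5 and AGGTCA in 4. The 2 windows of Hilpda overlap and share a GCGTG site. Over 32817 promoter windows of the same length, 19.6% held ACGTG, 32.4% held GCGTG and 16.3% held AGGTCA. A pair of nuclear receptor cores spaced by 1 base, the layout to which PPARs bind, was in none of the 10 windows and in 0.067% of all windows. The sequences of Plin2 and Hilpda, the droplet genes with the most UMIs, are printed from 250 bases before to 20 bases after the start, with motif letters in capitals. The Plin2 stretch is chr4:86670040-86670309 on the minus strand, and its capitals mark, in the order they appear, the nuclear receptor core read on the other strand, the G form of the hypoxia core read on the other strand, and a palindrome in which the A form of the hypoxia core overlaps itself on both strands. The Hilpda stretch is chr6:29272238-29272507 on the plus strand and holds none of the motifs. A match is a run of letters and not a measured binding site.
Plin2: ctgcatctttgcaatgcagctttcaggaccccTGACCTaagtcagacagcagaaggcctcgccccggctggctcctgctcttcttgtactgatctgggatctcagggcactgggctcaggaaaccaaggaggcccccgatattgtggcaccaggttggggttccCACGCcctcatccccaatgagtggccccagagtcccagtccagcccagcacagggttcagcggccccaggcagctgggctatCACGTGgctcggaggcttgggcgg
Hilpda: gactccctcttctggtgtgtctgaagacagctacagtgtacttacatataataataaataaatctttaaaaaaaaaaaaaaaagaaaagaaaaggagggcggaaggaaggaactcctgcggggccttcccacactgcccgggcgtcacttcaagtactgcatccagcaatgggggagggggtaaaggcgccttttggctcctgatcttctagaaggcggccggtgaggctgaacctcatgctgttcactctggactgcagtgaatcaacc

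The files held 24007 barcodes, with 259 to 10481 per library and a median of 9106 to 24077 UMIs per barcode. A level is given in CPM, the UMIs of a gene per 1000000 UMIs of the library or cell class. The chow libraries were the smallest, so 1 UMI weighed most in VitA+Col1a1+ chow, where 3 UMIs correspond to 0.488 CPM. Barcodes were split into classes with at least 1 UMI of Lrat (stellate cells), Pecam1 (endothelial cells) or C1qa (macrophages) and none of the other markers. The Lrat class held 10039 barcodes in DEN+WAD and 233 in chow for the VitA+Col1a1+ gate, 1767 in DEN+WAD and 466 in chow for the VitA-Col1a1+ gate, and 3065 in VitA-Col1a1- DEN+WAD. All libraries are labelled as hepatic stellate cells, yet in VitA-Col1a1- DEN+WAD 1614 barcodes were of the Pecam1 class and 1055 of the C1qa class. In each pair of libraries 0 to 21 barcodes had the same sequence.

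Angptl4 (ENSMUSG00000002289; chromosome 17, 33773750 to 33781830, minus strand, GRCm38) was read in every library. Its level was 138 CPM in VitA+Col1a1+ DEN+WAD (95% Poisson interval 135.7 to 139.5; 20626 UMIs) and 8.62 in VitA+Col1a1+ chow (6.46 to 11.3; 53 UMIs). In the VitA-Col1a1+ gate it stood at 73.8 in DEN+WAD (71.4 to 76.3) and at 16.7 in chow (14.7 to 18.9; 251 UMIs). VitA-Col1a1- DEN+WAD held 51.5 (50.1 to 52.9). A level summed over a library cannot tell fewer positive cells from less RNA in each. The 3 DEN+WAD libraries were all above both chow libraries, no neighbouring intervals in this order overlapped, and the order between the gates turned over: VitA+ was above VitA- after DEN+WAD and below it on chow.

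**Figure D1:**
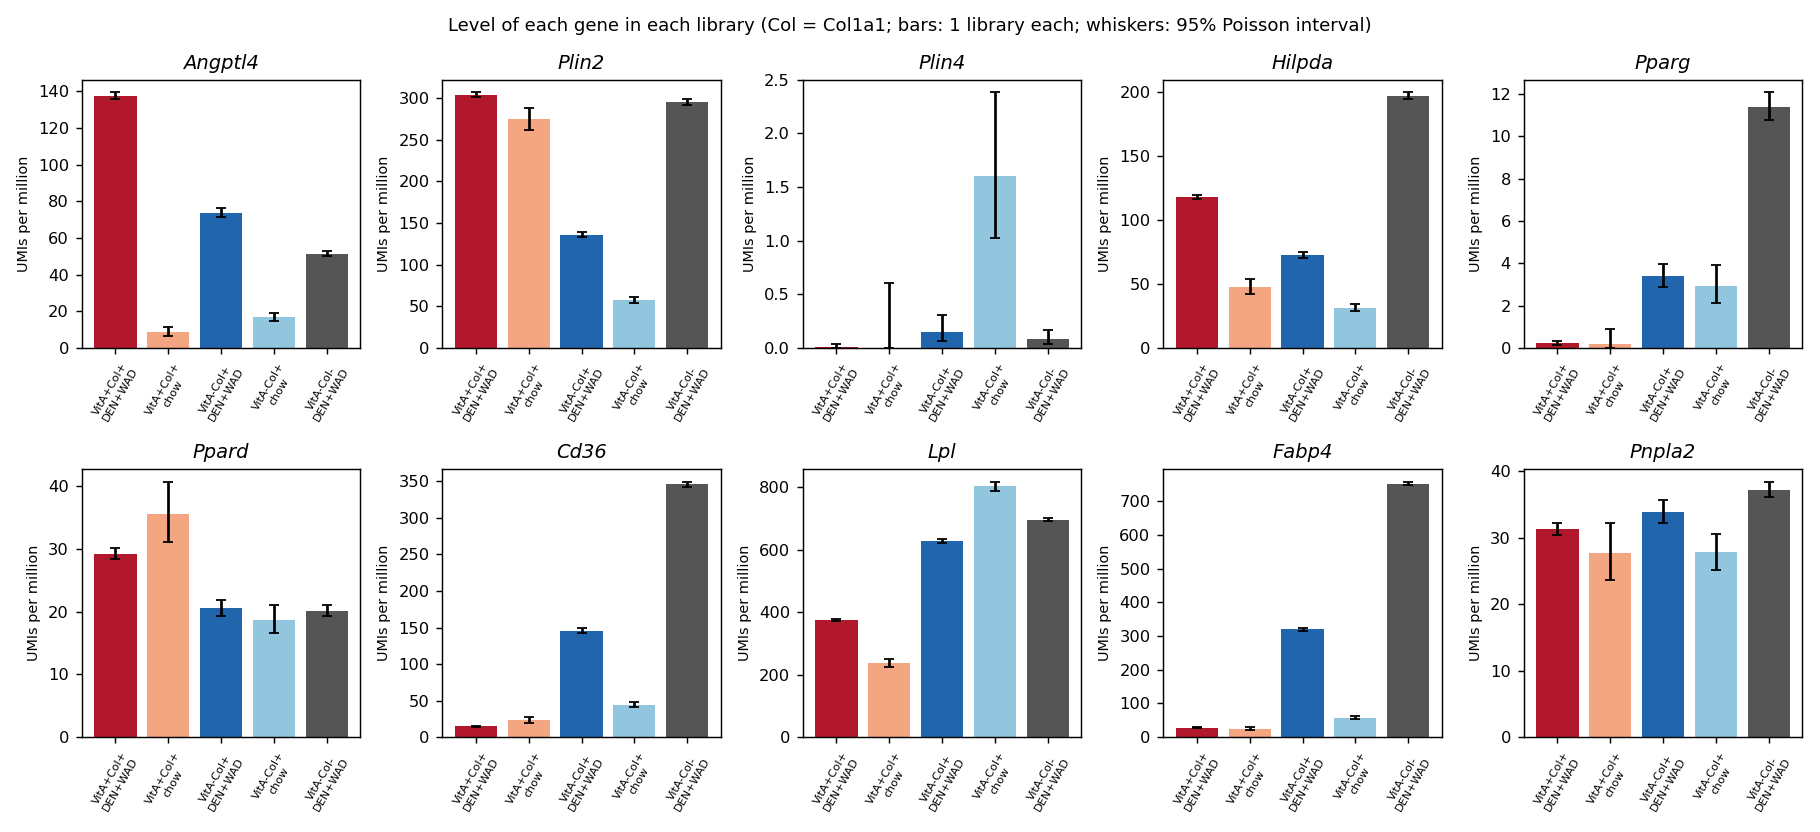
Level of each of the 10 genes in the 5 libraries, in CPM on a linear axis, with 1 bar per library and whiskers for the exact Poisson 95% interval (counting error only). "Col" on the axis stands for Col1a1. Angptl4 ranges from 8.62 in VitA+Col1a1+ chow to 138 in VitA+Col1a1+ DEN+WAD, whereas Ppard stays between 18.7 and 35.6.

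Relative to chow, Angptl4 was 15.95-fold higher in the VitA+ gate (95% interval of the ratio 12.2 to 21.3) and 4.41-fold higher in the VitA- gate (3.88 to 5.03). By log2 ratio it ranked 9 of 9592 genes tested in the VitA+ gate, where only genes with a mean of at least 5 CPM over both libraries were tested, and 100 of 10241 in the VitA- gate. In the Lrat class its level was 139.5 against 6.25 (35 UMIs) in the VitA+ gate, a ratio of 22.3 (16.04 to 32.1). The Lrat class of the VitA- gate gave 79.6 against 11.9, a ratio of 6.67 (5.59 to 8.01). Its rank in the Lrat class was 10 of 9449 genes in VitA+ and 37 of 9931 in VitA-. In VitA+ the intervals of the Lrat and whole-library ratios overlapped. In VitA- they did not, but the whole-library log2 ratio moved from 2.14 to 2.55 without a single barcode in each library, beside 2.74 in Lrat cells. Markers of other cells also differed between DEN+WAD and chow, in both directions. In VitA+ the 8 hepatocyte markers summed to 100.01 CPM in DEN+WAD Lrat cells and 7.68 in chow Lrat cells, with Alb at 52.3 and 0. In VitA- Lrat cells they summed to 89.8 in DEN+WAD and 162 in chow, whereas over all VitA- barcodes 5 of 6 tested were at least 2-fold higher (480 against 169 summed). All 3 cholangiocyte markers tested were at least 2-fold higher in VitA- Lrat cells of DEN+WAD (48.2 against 4.74 summed over the list). Over all VitA+ barcodes the 4 tested were at least 2-fold lower (57.6 against 243 summed), and 1 of 4 smooth muscle markers was higher. Over all VitA- barcodes 4 of 6 smooth muscle markers were at least 2-fold lower (2514 against 4672 summed). The part of these markers in the Angptl4 differences was not tested. Among Lrat cells the levels in VitA-Col1a1+ DEN+WAD and VitA-Col1a1- DEN+WAD (81.2) lay close to each other, with a ratio of 0.980 (0.929 to 1.03).

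Single barcodes weighed heavily on the chow levels. In VitA+Col1a1+ chow 1 barcode held 13 of the 53 Angptl4 UMIs (24.5%), and the next held 3. It carried 45 Lrat UMIs and 1 Pecam1 UMI, and this single UMI kept it out of the Lrat class, so the chow level and the ratio of that class depend on it. Over all barcodes with any Lrat UMI, Angptl4 stood at 138.8 CPM in DEN+WAD and 8.93 in chow. In VitA-Col1a1+ chow 1 barcode of 102759 UMIs held 66 of 251 (26.3%), with no Lrat UMI and 315 Col1a1 UMIs. Without the barcode richest in Angptl4 in each library, the chow levels were 6.53 and 12.4, and the log2 ratios 4.39 in VitA+ and 2.55 in VitA-. In VitA+Col1a1+ DEN+WAD the barcode with the most Angptl4 UMIs held 35 of them and carried 13 Pecam1, 807 Fabp4 and no Lrat UMIs. It made up 0.170% of the Angptl4 UMIs there, whereas the Lrat class held 98.5%.

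Per cell, Angptl4 was sparse. After each barcode was thinned to 2000 UMIs, 20.4% of barcodes in VitA+Col1a1+ DEN+WAD had an Angptl4 UMI (2100 of 10309; exact binomial 95% interval 19.6 to 21.2), against 61.1% without thinning. VitA+Col1a1+ chow had 1.57% (4 of 255; 0.429 to 3.97) and 11.2% without thinning. VitA-Col1a1+ DEN+WAD had 10.9% (9.77 to 12.2; 42.8% without thinning) and VitA-Col1a1+ chow 1.70% (0.852 to 3.02; 18.1% without thinning). VitA-Col1a1- DEN+WAD had 7.85% (7.29 to 8.45; 23.2% without thinning). The DEN+WAD libraries lay above both chow libraries at matched depth, and the chow libraries did not differ from each other beyond their intervals. Most positive barcodes held a single thinned UMI: in VitA+Col1a1+ DEN+WAD 15.6% of barcodes had 1, 3.53% had 2 and 1.25% had 3 or more.

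Shares in the Pecam1 and C1qa classes, which held little Angptl4, served as a background, in which free RNA and low expression cannot be told apart. At 2000 UMIs the Pecam1 class had an Angptl4 UMI in 3.40% of cells in VitA+Col1a1+ DEN+WAD, 2.11% in the VitA-Col1a1+ library of DEN+WAD and 3.42% in the VitA-Col1a1- library, and the C1qa class of the last library in 2.56%. Lrat cells of the same libraries had 20.8%, 11.9% and 13.2%. Their median depths before thinning were 13307, 17278 and 11195 UMIs in the Lrat class, against 8486, 13509 and 7748 in the Pecam1 class and 6128 in the C1qa class. The chow Lrat cells, at 0.862% in VitA+ and 1.72% in VitA-, lay below the shares of the other classes in the DEN+WAD libraries. Within VitA-Col1a1+ chow the Pecam1 class had an Angptl4 UMI in 0 of 33 thinned cells (upper bound 10.6%), so at 2000 UMIs the chow shares were not told apart from background. Summed over all UMIs, the Lrat cells of that library held 11.9 CPM (9.98 to 14.2), above the upper bound of 5.99 CPM for the 0 UMIs of its 37 Pecam1 cells.

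**Figure D2:**
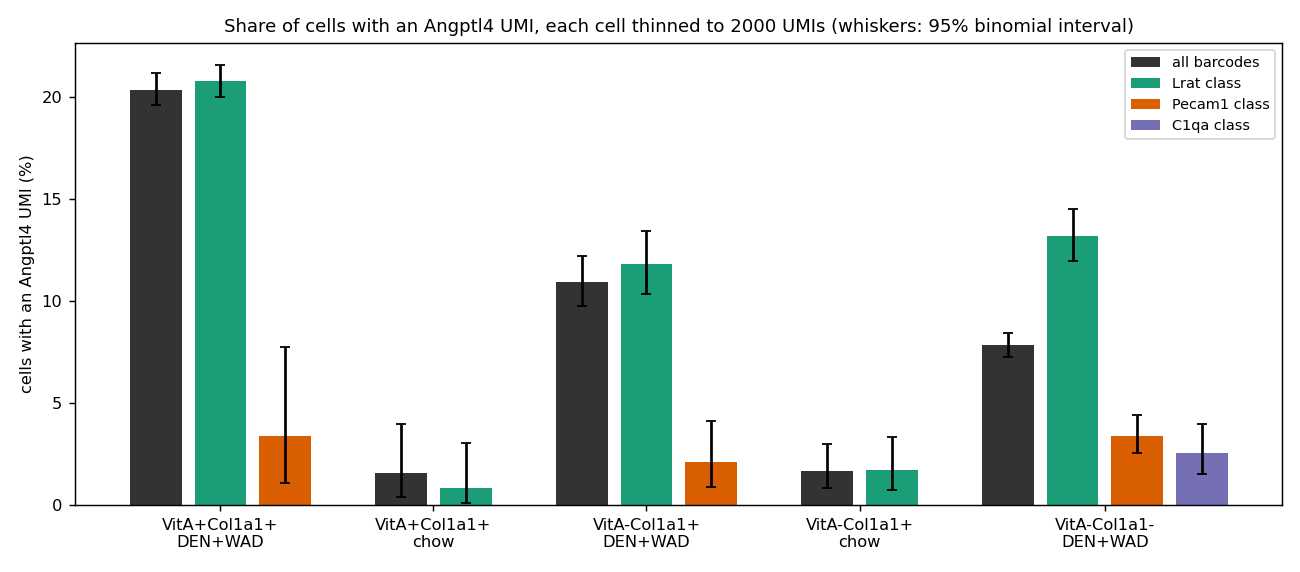
Share of barcodes with at least 1 Angptl4 UMI (percent) after thinning to 2000 UMIs, by library and marker class, with exact binomial 95% intervals. Lrat cells of the 3 DEN+WAD libraries lie between 11.9% and 20.8%, the Pecam1 and C1qa classes of those libraries between 2.11% and 3.42%, and the chow Lrat cells at 0.862% and 1.72%.

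Lpl (ENSMUSG00000015568; chromosome 8, 68880491 to 68907448, plus strand), which encodes the lipase that ANGPTL4 inhibits, had a different order. Its level was 373 CPM in DEN+WAD and 238 in chow for the VitA+Col1a1+ gate, 627.5 in DEN+WAD and 802 in chow for the VitA-Col1a1+ gate, and 695 in VitA-Col1a1- DEN+WAD. The VitA- libraries were all above the VitA+ libraries, and no neighbouring intervals overlapped. Against chow the ratio was 1.57 (1.49 to 1.66) in the VitA+ gate and 0.782 (0.766 to 0.799) in the VitA- gate, so the direction was opposite and neither reached 2-fold. In the Lrat class the ratios were 1.52 (1.44 to 1.60) and 0.779 (0.760 to 0.799). In the VitA- gate, then, Angptl4 was higher and Lpl lower in DEN+WAD, among Lrat cells as well as in the whole library.

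Plin2 (ENSMUSG00000028494; chromosome 4, 86648386 to 86670060, minus strand) encodes perilipin 2, the droplet coat protein of most cells outside fat. It stood at 304 CPM in DEN+WAD and 275 in chow for the VitA+Col1a1+ gate, 136 in DEN+WAD and 57.0 in chow for the VitA-Col1a1+ gate, and 295 in VitA-Col1a1- DEN+WAD. Both vitamin A positive libraries were above the Col1a1+ libraries of the VitA- gate, and no neighbouring intervals overlapped. The ratio to chow was 1.11 (1.05 to 1.16) in VitA+ and 2.39 (2.22 to 2.57) in VitA-. Among Lrat cells it was 1.10 (1.05 to 1.16) and 2.57 (2.36 to 2.80).

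Hilpda (ENSMUSG00000043421; chromosome 6, 29272488 to 29275446, plus strand) encodes a small droplet protein that inhibits the lipase ATGL. Its levels were 118 CPM in VitA+Col1a1+ DEN+WAD and 47.7 in VitA+Col1a1+ chow, 72.2 in VitA-Col1a1+ DEN+WAD and 31.5 in VitA-Col1a1+ chow, and 197 in VitA-Col1a1- DEN+WAD. As for Angptl4, all 3 DEN+WAD libraries lay above both chow libraries with no overlap of intervals. The ratio to chow was nearly equal in the gates, at 2.47 (2.20 to 2.78) in VitA+ and 2.30 (2.08 to 2.53) in VitA-. Lrat cells gave 2.41 (2.14 to 2.73) and 2.06 (1.83 to 2.32). The Hilpda stretch printed above carries no searched motif, but its full window holds GCGTG 27 bases after the start, past the printed end. The overlapping window of a further Hilpda start, 138 bases downstream, holds that same site, another GCGTG and an ACGTG.

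Pnpla2 (ENSMUSG00000025509; chromosome 7, 141455198 to 141460743, plus strand) encodes ATGL, the enzyme that begins the breakdown of droplet triglyceride. It was flat beside the genes above, at 31.3 CPM in DEN+WAD and 27.7 in chow for the VitA+Col1a1+ gate, 33.9 in DEN+WAD and 27.8 in chow for the VitA-Col1a1+ gate, and 37.2 in VitA-Col1a1- DEN+WAD. The intervals of the lowest 3 libraries, both chow libraries and VitA+Col1a1+ DEN+WAD, overlapped. The ratio to chow was 1.13 (0.972 to 1.33) in VitA+, whose interval includes 1, and 1.22 (1.09 to 1.36) in VitA-.

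Plin4 (ENSMUSG00000002831; chromosome 17, 56100591 to 56109803, minus strand), a perilipin of fat and muscle, was close to absent. It had 1 UMI in DEN+WAD and 0 in chow for the VitA+Col1a1+ gate, 7 in DEN+WAD and 24 in chow for the VitA-Col1a1+ gate, and 9 in VitA-Col1a1- DEN+WAD. The 0 UMIs had an exact Poisson upper bound of 0.600 CPM. VitA-Col1a1+ chow was the highest library, at 1.60 CPM against 0.147 in VitA-Col1a1+ DEN+WAD, a ratio of 0.0918 (0.0334 to 0.220) that rests on those 24 UMIs in 12 barcodes. The gene overlaps Hdgfl2 on the other strand.

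Cd36 (ENSMUSG00000002944; chromosome 5, 17781690 to 17888801, minus strand) encodes a fatty acid transporter of endothelial cells, macrophages and adipocytes. Its levels were 15.2 CPM in DEN+WAD and 23.1 in chow for the VitA+Col1a1+ gate, 145 in DEN+WAD and 44.0 in chow for the VitA-Col1a1+ gate, and 346 in VitA-Col1a1- DEN+WAD. Over whole libraries the ratio to chow was 0.656 (0.553 to 0.783) in VitA+ and 3.30 (3.05 to 3.58) in VitA-. Among Lrat cells of the VitA- gate the direction turned over, with 4.85 against 11.1 and a ratio of 0.436 (0.342 to 0.557). The chow level there rests on 122 UMIs in 13 of 466 cells, 43 of them in 1 cell. The interval does not cover this spread between cells. In VitA+ the Lrat class had 57 UMIs against 2, a ratio of 1.10 (0.290 to 9.27) that leaves the direction undetermined.

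Fabp4 (ENSMUSG00000062515; chromosome 3, 10204088 to 10208576, minus strand), the fatty acid binding protein of fat and capillary endothelium, had the same order as Cd36 among the VitA- libraries. It stood at 28.5 CPM in DEN+WAD and 24.6 in chow for the VitA+Col1a1+ gate, 321 in DEN+WAD and 57.7 in chow for the VitA-Col1a1+ gate, and 753 in VitA-Col1a1- DEN+WAD. The ratio over whole libraries was 1.16 (0.986 to 1.37) in VitA+ and 5.56 (5.19 to 5.96) in VitA-. Among Lrat cells of the VitA- gate it was 0.505 (0.434 to 0.589), from 13.2 against 26.1. Without the barcode richest in Angptl4, which held 807 Fabp4 UMIs, the VitA+ log2 ratio turned from positive to -0.09.

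Over whole libraries endothelial cells moved with Cd36 in both gates and with Fabp4 in VitA-. In the VitA- gate the Pecam1 class made up 14% of barcodes in DEN+WAD and 5.54% in chow, and 11 of 12 endothelial markers were at least 2-fold higher in DEN+WAD. In VitA+ the class made up 1.41% in DEN+WAD and 3.47% in chow, and 6 of the 10 endothelial markers tested were at least 2-fold lower. Among VitA- Lrat cells, where Cd36 and Fabp4 were lower in DEN+WAD, endothelial markers went the other way. There 2 of 4 tested were at least 2-fold higher and 0 lower (median log2 ratio 1.20). Within the Pecam1 class of the VitA- gate Cd36 stood at 975 in DEN+WAD and 664 in chow, and Fabp4 at 1911 and 607, although the chow class held 37 cells only and no ratio is drawn from it. In VitA- Lrat cells 8 of 9 portal fibroblast markers were at least 2-fold lower in DEN+WAD (1229 against 3984 CPM summed) and 8 of 14 stellate markers at least 2-fold higher (35765 against 14835). The part of this shift in the VitA- ratios, that of Angptl4 included, was not tested. In the VitA+ gate no stellate marker of 14 reached 2-fold. Its Lrat cells held portal fibroblast markers at 104 CPM summed in DEN+WAD and 52.0 in chow, and smooth muscle markers at 1161 and 750. In each of these lists 1 of 4 markers tested was at least 2-fold higher. In VitA+ Lrat cells with no portal fibroblast marker UMI after thinning to 5000 UMIs, Angptl4 stood at 143 against 5.79, the latter from 26 UMIs.

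Pparg (ENSMUSG00000000440; chromosome 6, 115360951 to 115490399, plus strand), the receptor that drives fat cell formation, was low in the Col1a1+ gates. It had 33 UMIs in DEN+WAD (0.220 CPM) and 1 in chow (0.163) for the VitA+Col1a1+ gate, 161 in DEN+WAD (3.38) and 44 in chow (2.93) for the VitA-Col1a1+ gate, and 1206 in VitA-Col1a1- DEN+WAD (11.4). The order followed the gates and not the diets, and within each Col1a1+ gate the DEN+WAD and chow intervals overlapped. The ratio to chow was 1.35 (0.226 to 55.0) in VitA+, where 1 chow UMI sets no useful limit, and 1.15 (0.821 to 1.65) in VitA-. Among VitA- Lrat cells it was 0.445 (0.250 to 0.802), from 30 and 23 UMIs. Pparg overlaps Gm44079 on the other strand.

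Ppard (ENSMUSG00000002250; chromosome 17, 28232700 to 28301474, plus strand), the PPAR found in most tissues, was read at 29.2 CPM in DEN+WAD and 35.6 in chow for the VitA+Col1a1+ gate, 20.5 in DEN+WAD and 18.7 in chow for the VitA-Col1a1+ gate, and 20.1 in VitA-Col1a1- DEN+WAD. The VitA+ libraries were above the 3 VitA- libraries, whose intervals overlapped. The ratio to chow was 0.819 (0.715 to 0.943) in VitA+ and 1.10 (0.959 to 1.26) in VitA-. Neither receptor was called 2-fold higher in a gate, and Pparg was under the filter on low levels in both.

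**Figure D3:**
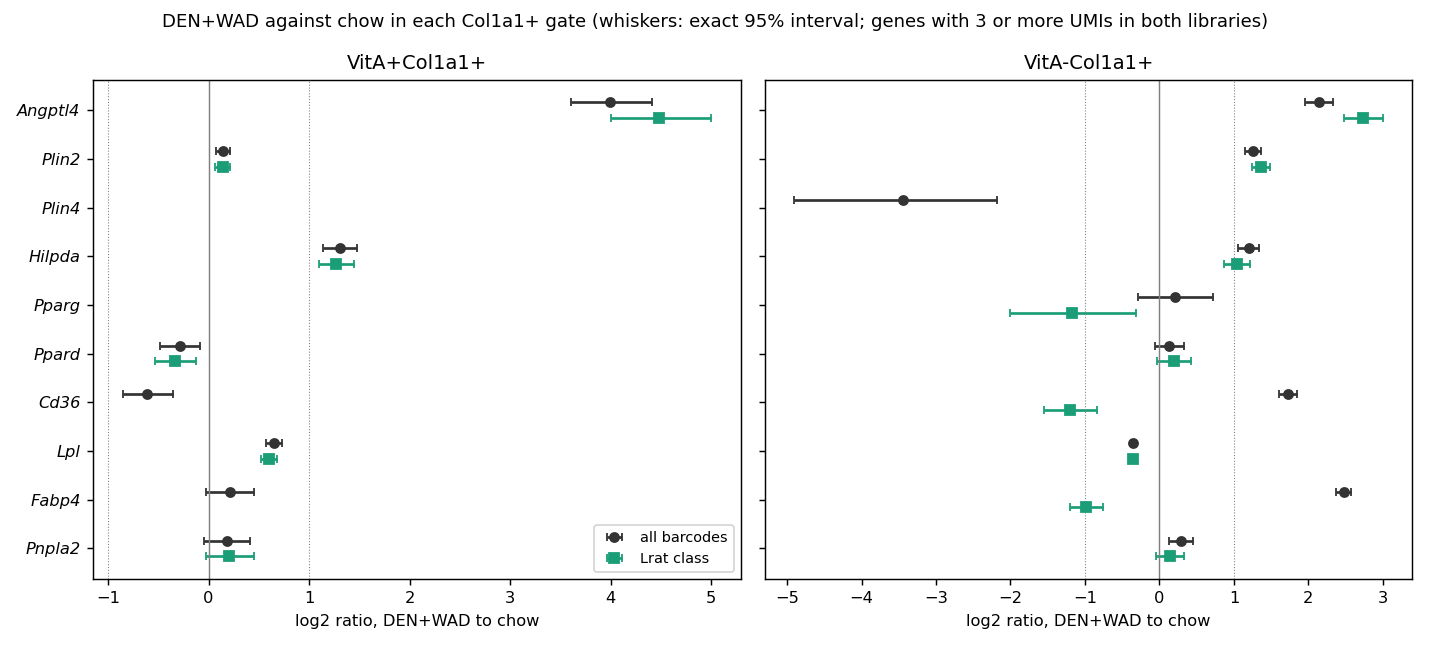
Log2 ratio of DEN+WAD to chow for the members with at least 3 UMIs in both libraries, over all barcodes and over the Lrat class of each Col1a1+ gate, with 95% counting intervals. Angptl4 (4.0 and 2.14 over all barcodes) and Hilpda lie above 0 in every panel, whereas Cd36 and Fabp4 lie above 0 in VitA- over all barcodes and below 0 there in the Lrat class.

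Counted together, 8 of the 10 genes passed the filter on low levels in VitA+ over all barcodes, and of these Angptl4 and Hilpda exceeded chow by 2-fold or more, with none lower. Over all genes tested in that comparison 0.97% were higher by that fold and 3.11% at least 2-fold lower. In VitA+ Lrat cells 6 passed the filter and the same 2 genes were higher, beside 1.11% of all genes higher and 2.12% lower. In VitA- over all barcodes 8 passed, and Angptl4, Plin2, Hilpda, Cd36 and Fabp4 were at least 2-fold higher and none lower, beside 4.39% and 4.94% of all genes. In VitA- Lrat cells 8 passed, Angptl4, Plin2 and Hilpda were higher and Cd36 lower, beside 2.97% and 6.59% of all genes. Since the list was drawn up with these contrasts known, nothing is read from the counts. The comparisons in the 2 gates share no library, but they may share mice and are not known to be independent.

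Across cell classes the genes took different places, seen best in VitA-Col1a1- DEN+WAD, which held all 3 classes. Angptl4 was highest in Lrat cells, at 81.2 CPM against 24.4 in the Pecam1 class and 19.8 in the C1qa class. The Lrat level was 3.33 times the Pecam1 level (2.96 to 3.75) and 4.10 times the C1qa level (3.59 to 4.70). In VitA+Col1a1+ DEN+WAD the Pecam1 class held 38.1 (28.2 to 50.4), of which the 1 barcode named above held 35 of 49 UMIs.

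The lipase and the uptake genes separated the classes far more. Lpl stood at 739 in Lrat cells, 25.1 in the Pecam1 class and 1321 in the C1qa class. Cd36 stood at 15.7, 1105 and 429 in the same order, and Fabp4 at 33.1, 3337 and 115. Fabp4 was thus 101-fold higher in the Pecam1 class than in Lrat cells, and Lpl 29.4-fold higher in Lrat cells than in the Pecam1 class. Pparg stood at 0.502 in Lrat cells, 23.1 in the Pecam1 class and 26.6 in the C1qa class.

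Of the droplet genes, Plin2, Hilpda and Pnpla2 were present in every class, whereas Plin4 had 1 UMI in Lrat cells, 0 in the Pecam1 class and 4 in the C1qa class. Plin2 stood at 191 in Lrat cells, 179 in the Pecam1 class and 637 in the C1qa class, Hilpda at 145, 269 and 263, and Pnpla2 at 17.5, 60.9 and 57.7. Ppard had the reverse order of Pparg, with 25.5, 20.0 and 13.8. Angptl4 and Ppard were the only members of the 10 with their highest level in Lrat cells in this library. Hepatocyte markers summed to 1775 CPM in Lrat cells, 866 in the Pecam1 class and 8720 in the C1qa class, and their part in the class levels was not tested. The classes carried their own markers: C1qb stood at 4218 and Clec4f at 1817 in the C1qa class, and Kdr at 1524 in the Pecam1 class. They also held markers of other classes. Cdh5 stood at 809 in the Pecam1 class, 148 in the C1qa class and 4.07 in Lrat cells. The C1qa class held Stab2 at 44.7 and Col1a1 at 254, and C1qb stood at 26.0 in Lrat cells and 38.2 in the Pecam1 class.

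**Figure D4:**
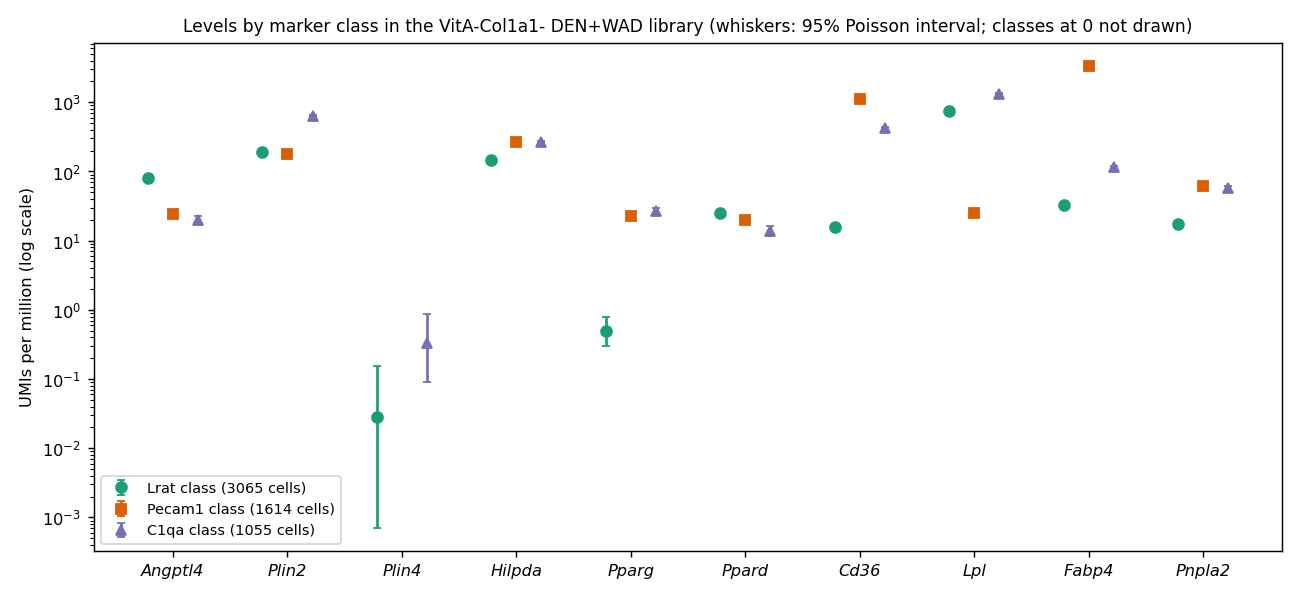
Level of the members by marker class (Lrat, Pecam1, C1qa) for VitA-Col1a1- DEN+WAD, as CPM on a log axis with exact Poisson 95% intervals. Levels of 0 are not drawn. In VitA-Col1a1- DEN+WAD Angptl4 is highest in Lrat cells (81.2), Fabp4 in the Pecam1 class (3337) and Lpl in the C1qa class (1321).

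Among thinned Lrat cells of VitA+Col1a1+ DEN+WAD, 2074 had an Angptl4 UMI and 7906 had none. Plin2 was 1.13 times as high in the first set (1.06 to 1.20), Hilpda 1.11 times (1.01 to 1.22), Pnpla2 1.16 times and Lpl 0.956 times. Over 5686 genes the median of the same ratio was 1.0 and its 5th to 95th percentiles ran from 0.854 to 1.16, so all 4 lay inside the range of genes in general. In VitA-Col1a1- DEN+WAD Hilpda was 1.49 times as high in the cells with Angptl4 (1.24 to 1.79), where the 95th percentile of all genes was 1.40, and Fabp4 0.362 times as high (0.184 to 0.645). Pnpla2 there was 0.591 times as high (0.247 to 1.22), under the 5th percentile of 0.717 but with an interval that includes 1. In VitA-Col1a1+ DEN+WAD, with 208 cells that held Angptl4, Hilpda was 1.31 times as high (0.887 to 1.88) and Plin2 1.35 times (1.05 to 1.73), both inside the 0.677 to 1.60 of all genes. Cells are not replicates, and no test was made.

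The 9 library-by-class groups with at least 50 cells were used to find genes with a level pattern like that of Angptl4, among 6639 genes. The closest by Pearson correlation of log2(CPM + 1) were Eci2 (r = 0.918), which encodes an enzyme of unsaturated fatty acid oxidation, Glod4 (0.888), Nxt1 (0.817), Cdc123 (0.808) and 2310009B15Rik (0.798). Eci2 ran only from 43.9 to 68.8 CPM across those groups, where Angptl4 ran from 6.25 to 139.5. Among the other members, the highest was Hilpda with 0.249, then Plin2 with 0.110, and the rest lay between -0.290 and 0.0743. These correlations describe 9 points that share libraries and depth.

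Further genes of the same pathways were taken from lists drawn up with earlier results of these data known, which hold no member apart from Pparg and Ppard. Over all genes tested the median log2 ratio was -0.08 in VitA+ and -0.03 in VitA-. At least 2-fold higher were 0.97% of them in VitA+ and 4.39% in VitA-, and at least 2-fold lower 3.11% and 4.94%. These shares stand beside every list count below, and nothing is read from the counts, since the lists were not drawn up blind. Of 20 PPAR target genes tested in VitA+, 3 were at least 2-fold higher and 1 lower, with a median of 0.10. Creb3l3, a transcription factor of lipid metabolism, stood at 17.8 against 7.97 CPM in chow, and Pdk4, a kinase that shuts glucose out of oxidation, was lower at 25.2 against 58.3. Pex11a of peroxisomes, named after its values were seen, was also higher (9.78 against 4.72). Pdk4 was also lower in the Lrat class (23.4 against 55.0).

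In VitA- 1 of 20 PPAR targets tested passed 2-fold, with a median of 0.18. It was Fabp1, the liver fatty acid binding protein and a hepatocyte marker, with 793 UMIs against 2, a ratio of 125 (34.4 to 1033). In Lrat cells it had 25 UMIs against 2. No gene of the PPAR receptors and partners passed 2-fold in either gate (9 tested in each, Ppard included; medians -0.46 and -0.17), and none of the 12 droplet coat genes did (medians 0.15 and 0.02). Of the lipolysis genes 7 were tested in VitA+ and 9 in VitA-, and none passed (medians -0.09 and 0.38).

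In the lipoprotein lipase axis 1 of 9 genes tested was at least 2-fold lower in VitA+ and none higher (median -0.10). It was Lipg, endothelial lipase, at 15.9 against 34.8. In VitA- 3 of 12 were higher and 2 lower (median -0.15). Gpihbp1, which anchors lipoprotein lipase to capillaries, stood at 284 against 67.6, and its level in the Pecam1 class of DEN+WAD was 1907. Apoc1, an apolipoprotein, stood at 284.5 against 74.8, also in Lrat cells with 299 against 78.3. Named after their values were seen, Apoc3 had 898 UMIs against 0, Vldlr was at 3.99 against 22.9, and Pcsk6 at 44.0 against 115. Among genes of fatty acid uptake, binding and activation, 7 were tested in VitA+ with none past 2-fold (median 0.07), and 11 in VitA-, with Fabp1 higher, Cav1 (21.1 against 62.7) and Fabp7 (6.76 against 14.5) lower, and a median of -0.25.

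Of the other angiopoietin-like genes, 2 were tested in VitA+ with none past 2-fold (median -0.07), and 3 in VitA- with 1 higher and 1 lower (median 0.09). Angptl6 stood at 2114 in DEN+WAD and 2174 in chow in VitA+, and at 716 and 113 in VitA-, a ratio of 6.32. Angptl7 was lower in VitA- DEN+WAD, at 2.41 against 20.6. Angptl6 is also a marker of stellate cells, whose markers were higher in VitA- DEN+WAD as given above.

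Lists for other known inducers of Angptl4 were read beside the same shares of all genes (0.97% higher in VitA+ and 4.39% in VitA-). Of 15 hypoxia genes in VitA+, 1 was at least 2-fold higher and 1 lower (median 0.03): Hk2, a hexokinase, stood at 25.9 against 4.39, and Eno1, whose reads may be shared with near-identical copies, at 42.0 against 98.9. None of 15 passed in VitA- (median 0.05). Of 12 glucocorticoid response genes 3 were higher in VitA+ and 4 in VitA-, with none lower (medians 0.15 and 0.35). Cebpd, a transcription factor, was 2.35-fold higher in VitA+ (1065 against 454) and 2.98-fold higher in VitA- (873 against 293). The metallothionein Mt2 stood at 198 against 82.2 in VitA+, and Mt1 at 782 against 375 in VitA-. Zbtb16 in VitA+ (9.02 against 4.07), and Mt2 (151 against 46.7) and Sgk1 (392 against 190) in VitA-, were the others, named after their values were seen.

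Genes that respond to tissue handling were also read, since cells were freed by enzyme perfusion. Of 10 immediate-early and heat shock genes none passed 2-fold in VitA+ (median -0.19), and 3 were higher in VitA- (median 0.54). Hspa1a (2020 against 494) and Hspa1b (2027 against 499.8) have near-identical sequences and their counts cannot be fully separated, and Dnajb1, named after its values were seen, stood at 404 against 142. These genes were higher beside Angptl4 in VitA-, and in VitA+ they were not. Their part in the VitA- result was not tested.

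**Figure D5:**
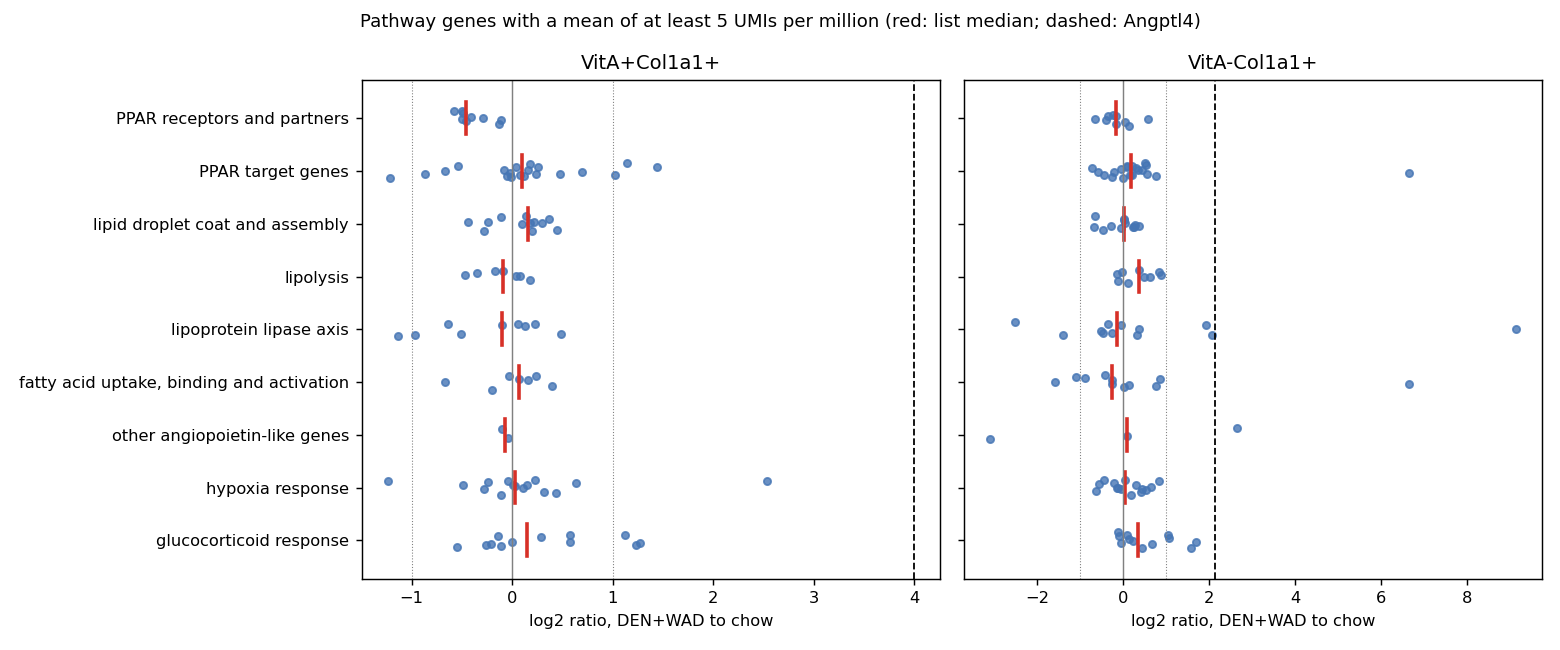
Log2 ratio of DEN+WAD to chow (0.5 UMIs added to each count) for every tested gene of the pathway lists in both Col1a1+ gates, with 1 point per gene. Most points lie between -1 and 1, and the points far to the right in VitA- are Fabp1 (6.64, in both lists that hold it) and Apoc3 (9.14).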

How the data were processed

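The sources give the kit as 10x Genomics Single Cell 3', as v3.1 in the sample descriptions and as v2 in the extraction protocol. Per the labels the authors made the deposited matrices of raw UMI counts with Cell Ranger 3.1.0 on mm10, and the file headers name 3.1.0 and 6.1.2. Each library came as 1 filtered matrix, and no barcode was removed here and no doublets were called. Counts were summed per library and per marker class and scaled to CPM (UMIs per 1000000 UMIs). Levels carry exact Poisson, ratios exact conditional binomial and shares exact Clopper-Pearson 95% intervals, which cover counting error only. Shares used barcodes thinned to 2000 UMIs (seed 7), with shallower barcodes left out. Genes with a mean of at least 5 CPM over both libraries were tested against a fold of 2. Gene positions came from GENCODE M21, in which 30934 of 31053 identifiers were found.

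The 10 members and the gene lists were chosen with earlier results of these data known. The text names all members, of each pathway list the 2 genes with the highest mean level among those past 2-fold, and the 5 genes most like Angptl4; other genes named are marked as chosen after their values were seen. Scaling alternatives used edgeR 4.0.16 (R 4.3.3), and all else was run with numpy 2.4.6, pandas 2.3.3 and scipy 1.17.1 under Python 3.11.15, with figures by matplotlib 3.10.9. The scripts were tested on simulated data. Alternatives covered scaling, the filter, the fold, the marker class, thinning and single barcodes. One PPAR target gene is not reported here by name.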

Additional observations from a re-analysis of the deposited data

Results flagged for a closer look

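Cd36 and Lpl had opposite directions in the Col1a1+ gates, and with 1 library per group this difference was not tested. The log2 ratio of DEN+WAD to chow was -0.61 for Cd36 in VitA+ and 1.72 in VitA-. For Lpl it was 0.65 in VitA+ and -0.35 in VitA-. Among Lrat cells alone Cd36 turned over in VitA- (-1.20), where 1 chow cell held 43 of 122 UMIs. Its direction in VitA+ was undetermined (0.13, from 57 and 2 UMIs, interval -1.79 to 3.21), whereas Lpl kept its direction in each (0.60 and -0.36).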

How the results depend on the processing

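Angptl4 stayed above chow under every alternative run. Its VitA+ log2 ratio of 4.0 went to 4.48 in the Lrat class and 4.48 with at least 2 Lrat UMIs per cell. It went to 4.63 in Lrat cells without portal fibroblast markers, meaning no UMI of them at 5000 thinned UMIs. Its VitA- ratio of 2.14 went to 2.74 in the Lrat class, 2.71 with at least 2 Lrat UMIs, 2.55 without the richest barcode and 2.50 as the mean of per-cell levels. Cd36 in VitA+ was 0.13 (Lrat class), 0.086 (at least 2 Lrat UMIs) and -0.03 (no portal fibroblast markers), the first from 2 chow UMIs, which leaves its direction undetermined. Under the first pair of settings Cd36 in VitA- turned to -1.20 and -0.80, and Fabp4 to -0.98 and -0.77 in VitA-. Fabp4 in VitA+ turned to -0.09 without the richest barcode. The members higher in VitA- went from 5 to 3 under both Lrat definitions, with 1 lower in the Lrat class. At a fold of 1.5 in VitA+, Lpl joined Angptl4 and Hilpda as higher and Cd36 was the 1 member lower. Beside this 3.72% of all genes were higher and 10.5% lower. Shares with an Angptl4 UMI were 61.1%, 11.2%, 42.8%, 18.1% and 23.2% without thinning, and 38.5%, 3.94%, 21.8%, 5.91% and 16.4% at 5000 UMIs, in the order in which the libraries were introduced. With no filter 24.5% of genes were higher and 13.8% lower in VitA+, and 18.5% and 15.4% in VitA-. At a mean of at least 20 CPM they were 0.693% and 1.74%, and 3.67% and 3.97%. TMM raised all log2 ratios by 0.15 in VitA+ and 0.078 in VitA-, size factors by 0.14 and 0.079, and turned no member's direction. The alternatives of at least 2 Lrat UMIs, of no portal fibroblast marker and of no richest barcode were chosen after seeing the data. The cause of these moves was not tested. The chow libraries, with 53 and 251 Angptl4 UMIs, limit the depth. In VitA- chow 27 Lrat cells without portal fibroblast markers were left, too few for a ratio. No paired analysis was possible because each group has 1 library and the labels give no replicate numbers.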

Other observations

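The barcodes richest in Angptl4 were of different kinds in different libraries. In VitA-Col1a1- DEN+WAD the richest held 94 Angptl4 UMIs of 75028 in all, with no Lrat, Pecam1 or C1qa UMI, 127 Col1a1 UMIs, 34 Hilpda UMIs and Spp1 and Clu among its leading genes. In VitA-Col1a1+ DEN+WAD it held 45, with 8 Lrat UMIs, 12 Hilpda UMIs and Inhba and Mt1 among its leading genes. The tenth of barcodes with the most Angptl4 UMIs held 45.1% of all Angptl4 UMIs in VitA+Col1a1+ DEN+WAD, 56.2% in the VitA-Col1a1+ library of DEN+WAD and 74.4% in the VitA-Col1a1- library. Adipoq, which encodes adiponectin and defines fat cells, had 0 to 2 UMIs in a library.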
